A study of Homo sapiens with 9 samples.

Results

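The 42 genes described here encode proteins that make ribosomes in the nucleolus. They were taken as the rows of the deposited tables whose Ensembl ID maps to 1 of 42 listed symbols, out of 63241 genes in those tables. All 42 were found, and all 42 had enough counts to be tested, as did 14592 genes in all. They were sorted by step into RNA polymerase I (5 genes), small nucleolar ribonucleoproteins (snoRNPs, 8 genes), assembly of the small subunit (11 genes), assembly of the large subunit (14 genes) and proteins with several nucleolar roles (4 genes).

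The data are poly(A)-selected RNA sequencing of MEG-01, human megakaryoblasts grown as a line from a chronic myeloid leukaemia that had entered blast crisis. There were 3 libraries of cells treated with As2S2 (arsenic disulfide), 3 of cells treated with PMA (phorbol 12-myristate 13-acetate, which activates protein kinase C and is used to push these cells towards megakaryocytes) and 3 of control cells, whose label names neither agent nor vehicle. The labels give no dose or treatment time, and MEG-01 is a single leukaemic line, so donors are not represented. Nothing says that replicates were grown as separate cultures, so the p-values reflect the spread among these libraries alone, and that spread may be technical.

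Ribosome production starts when RNA polymerase I, brought to the ribosomal DNA by UBTF and RRN3, transcribes the long precursor of the ribosomal RNAs. Box C/D snoRNPs then methylate that precursor and box H/ACA snoRNPs turn some of its uridines into pseudouridine, both guided by small nucleolar RNAs. The small subunit processome and the large subunit assembly factors fold, cut and trim the precursor while ribosomal proteins join. In blood cells these genes are known to be high in dividing progenitors, and MYC is a known activator of many of them. Because ribosomal RNA carries no poly(A) tail, ribosome output itself was not measured here.

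Libraries held between 18.2 and 20.37 times 1e6 counts. As2S2 replicate 1 and control replicate 2 differed from their own replicates more than other libraries did: the chi-square per gene was 12 to 15.2 for replicate pairs with either of them and 2.42 to 3.46 for pairs without. As2S2 replicate 1 was the highest of its group for 23 of the 42 genes and the lowest for 17, and control replicate 2 was the lowest of its group for 24 and the highest for 15. Megakaryocyte markers were present in every group, with a summed level over 14 genes of 908 to 1048 CPM with As2S2, 1080 to 1115 CPM with PMA and 1051 to 1221 CPM in control, although PF4, a platelet chemokine, had at most 30 counts over all 9 libraries together. These sums hide changes of single markers: of the 12 tested, 4 rose and 2 fell with As2S2 against control (median log2 fold change 0.18), and 8 rose and 2 fell with PMA (median 1.47), among them ITGB3 (2.42), PPBP (4.55) and TUBB1 (5.53). Here CPM means counts per 1e6, after TMM adjustment of the library totals. MS4A1, a lymphoid marker, had 0 counts in every library, and the 6 lymphoid markers together held 1.93 to 2.93 CPM with As2S2, 2.53 to 2.71 CPM with PMA and 0.739 to 1.40 CPM in control. The 8 monocyte and granulocyte markers together held 34.5 to 42.3 CPM with As2S2, 50.4 to 56.7 CPM with PMA and 32.5 to 33.1 CPM in control, and MPO, ELANE, FCN1 and S100A8 each had at most 30 counts over all 9 libraries together. The 5 stromal, endothelial and epithelial markers together held 74.5 to 86.0 CPM with As2S2, 151 to 166 CPM with PMA and 69.7 to 78.5 CPM in control.

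Most of the 42 genes were lower after either treatment, and by more with PMA. With As2S2, 26 of 42 fell and 0 rose against control (edgeR quasi-likelihood test, adjusted p below 0.05), where 19.6% of all tested genes were lower and 20.3% higher (39.9% either way). At an unadjusted p below 0.05, 29 were lower and 0 higher, and DESeq2 and limma-voom also called 0 higher. With PMA, 36 fell and 3 rose (RRN3, WDR12 and NIP7), where 31.1% of all tested genes were lower and 30.8% higher (61.9% either way). The median log2 fold change of the 42 genes was -0.34 with As2S2 and -0.68 with PMA, against 0 over all tested genes in both comparisons. On log2(TPM + 1), where the median of all tested genes was -0.07 with As2S2 and -0.26 with PMA, the medians of the 42 genes were -0.42 and -1.09, and limma called 0 of the 42 higher with PMA. On that scale RRN3 was at 0.26, WDR12 at -0.18 and NIP7 at -0.17 with PMA, and none of these 3 values passed. In bulk RNA, fewer cells expressing a gene and less of its RNA per cell cannot be told apart.

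All 3 treated libraries lay below all 3 controls for 28 of the 42 genes with As2S2, where this held for 22.7% of tested genes. With PMA it held for 37, against 33.7% of tested genes, and 3 lay wholly above, against 33.8% of tested genes. PMA also moved genes of other kinds, the megakaryocyte markers given above among them. The summed level of 9 erythroid markers was 4402 to 4821 CPM with As2S2, 18911 to 20218 CPM with PMA and 3113 to 3659 CPM in control, and mitochondrial transcripts took 7.19% to 8.11%, 9.99% to 10.21% and 7.90% to 8.20% of counts. Of the erythroid markers, 3 rose and 4 fell with PMA (median log2 fold change -0.13), with the fetal globins HBG2 (2.66) and HBG1 (3.24) among the higher and SLC4A1 (-2.48) among the lower. The part these shifts play in the values below was not tested.

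**Figure D1:**
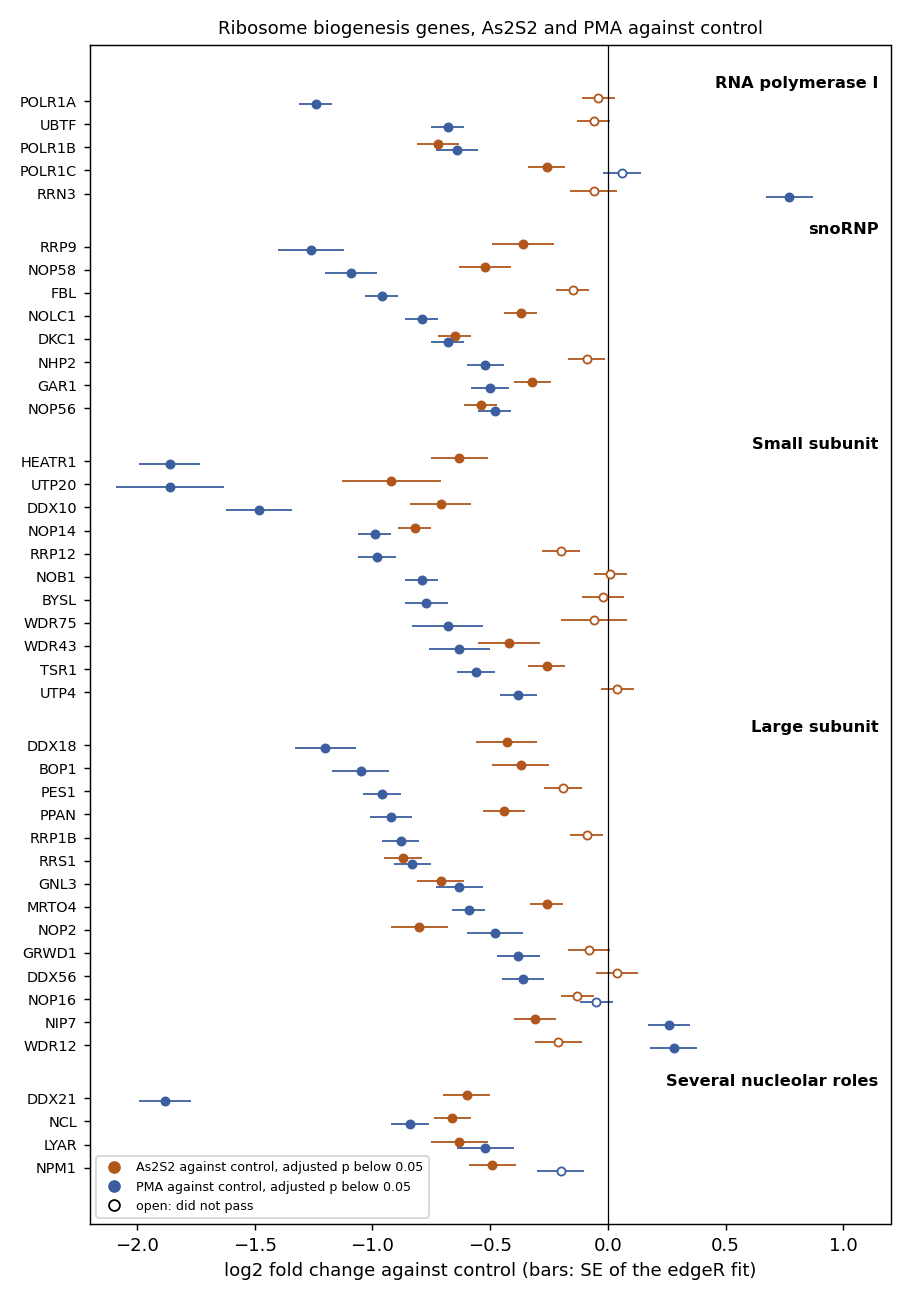
Log2 fold change against control of each of the 42 genes, grouped by step and ordered by the PMA value, for As2S2 (orange) and PMA (blue). Bars are SEs of the edgeR fit and open circles did not pass an adjusted p of 0.05. Nearly all points lie left of 0, with RRN3 (0.77), WDR12 (0.28) and NIP7 (0.26) as the filled points on the right.

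Both treatments were compared with the same 3 control libraries, so their calls are given side by side only. Of the 42 genes, 23 were lower with both treatments. Another 13 were lower with PMA while the As2S2 value did not pass. POLR1C and NPM1 were lower with As2S2 while the PMA value did not pass. NIP7 was lower with As2S2 and higher with PMA, RRN3 and WDR12 were higher with PMA while the As2S2 value did not pass, and NOP16 passed in neither comparison.

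The promoter sequences of these genes, which the choice of genes did not use, were searched for short motifs. Promoters of 35 of the 42 genes were matched in a RefSeq table (GRCh38.p14), each running from 250 bases before to 50 bases after the gene's start. The E-box CACGTG, the palindromic hexamer that MYC bound to MAX is known to recognise, was found in 10 of the 35 (28.6%). It was found in 27.7% of 112 promoters of other ribosome assembly genes, in 4.76% of 63 promoters of cytosolic ribosomal proteins and in 10.2% of the 10668 promoters of tested genes. The following windows are shown because they let the E-box (in capitals) be read beside the flanking bases in each of these 10 genes. Each is 5′ to 3′ on the gene's own strand.
BYSL: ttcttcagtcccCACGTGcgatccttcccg
FBL: tgcgctcttttcCACGTGcgaaagccccgg
MRTO4: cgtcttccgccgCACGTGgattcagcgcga
NOP14: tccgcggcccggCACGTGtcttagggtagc
NOP2: aggtccggattgCACGTGgagggccgc
PES1: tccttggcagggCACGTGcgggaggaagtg
RRP9: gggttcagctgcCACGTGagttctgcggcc
UTP20: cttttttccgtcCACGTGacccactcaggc
UTP4: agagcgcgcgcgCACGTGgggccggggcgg
WDR43: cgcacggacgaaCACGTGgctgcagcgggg

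These windows lie at chr6:41921515-41921544 (BYSL, plus strand), chr19:39846356-39846385 (FBL, minus), chr1:19251807-19251836 (MRTO4, plus), chr4:2963374-2963403 (NOP14, minus) and chr12:6568242-6568268 (NOP2, minus). The others lie at chr22:30591880-30591909 (PES1, minus), chr3:51941892-51941921 (RRP9, minus), chr12:101280083-101280112 (UTP20, plus), chr16:69132621-69132650 (UTP4, plus) and chr2:28894658-28894687 (WDR43, plus). Positions count the start base as the first, with no base 0. The first base of the E-box stood at -16 in UTP4, -10 in UTP20, -5 in RRP9, 4 in WDR43, 7 in FBL, 14 in PES1, 15 in MRTO4, 16 in NOP14, 29 in BYSL and 36 in NOP2. All 10 thus lay within 50 bases of the start, which was so for 77.4% of the other assembly genes with an E-box and for 40.2% of the tested genes with one. The 250 bases before the start of UTP20, the gene with the lowest As2S2 fold change of the 42, hold its E-box near their end (chr12:101279855-101280104, plus strand).
UTP20: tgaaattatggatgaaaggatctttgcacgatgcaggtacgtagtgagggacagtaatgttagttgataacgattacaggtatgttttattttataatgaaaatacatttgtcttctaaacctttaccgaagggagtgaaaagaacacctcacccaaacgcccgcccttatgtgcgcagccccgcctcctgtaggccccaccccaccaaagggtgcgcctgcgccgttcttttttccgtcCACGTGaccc

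**Figure D2:**
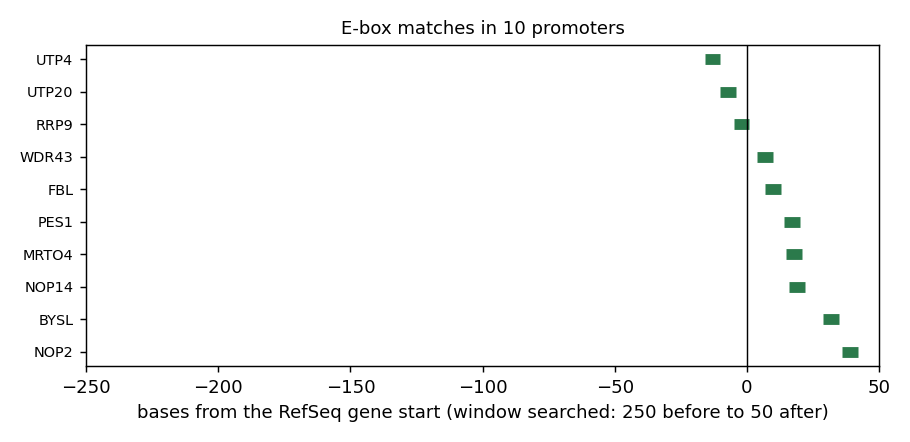
Position of the E-box in the 10 promoters that hold one, in bases from the RefSeq gene start, over the whole window searched. Green bars mark the 6 bases of each match, and all 10 sit between -16 and 42.

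Other motifs were searched on both strands in the same windows. The ETS-factor motif CCGGAAGT was in 7 of 35 promoters (20%) against 9% of tested genes, the palindromic motif of the factor NRF1 in 3 (8.57%) against 2.29%, and TATAAA in 1 (2.86%) against 5.88%. None of these 3 motifs contains the letters of the E-box. With As2S2, 6 of the 10 genes with an E-box and 15 of the 25 without one fell, and the median log2 fold change was -0.31 in both sets. With PMA, 10 of 10 and 19 of 25 fell, with medians of -0.86 and -0.56. These matches describe letters in a window and do not show binding.

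MYC itself was lower after both treatments. It had 335, 359 and 368 CPM with As2S2, 268, 267 and 257 CPM with PMA, and 853, 974 and 853 CPM in control, with no overlap between either treatment and control. The log2 fold changes were -1.34 ± 0.07 with As2S2 (SE, adjusted p = 1.21e-09, edgeR) and -1.76 ± 0.07 with PMA (adjusted p = 4.12e-12). MYCL, a relative of MYC, had 1.3, 1.86 and 1.78 CPM with As2S2, 5.12, 4.68 and 6.13 CPM with PMA, and 8.59, 10.6 and 8.41 CPM in control. Its log2 fold change with As2S2 was -2.47 ± 0.19 (adjusted p = 6.02e-08, edgeR). Over the 12 listed MYC-network genes, 3 fell and 1 rose with As2S2 (median -0.07), and 8 fell and 2 rose with PMA (median -0.33). MYCN, another relative of MYC, had the highest PMA value of these, at 3.84 ± 0.51 (adjusted p = 6.12e-06, edgeR).

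The RNA polymerase I genes did not all move one way. With As2S2, 2 of 5 fell (POLR1B and POLR1C) and the median log2 fold change was -0.06. With PMA, 3 of 5 fell (POLR1A, POLR1B and UBTF) and RRN3 rose, with a median of -0.64. POLR1A (ENSG00000068654), the largest subunit of RNA polymerase I, had 97.5, 97.9 and 104 CPM with As2S2, 43.6, 44.1 and 43.2 CPM with PMA, and 107, 97.1 and 104 CPM in control. The As2S2 libraries overlapped the controls and all PMA libraries lay below both. Its log2 fold change was -1.24 ± 0.07 with PMA (adjusted p = 4.00e-10, edgeR) and -0.04 ± 0.07 with As2S2 (adjusted p = 0.667).

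POLR1B (ENSG00000125630), the second largest subunit, which completes the catalytic core, showed another pattern. It had 41.6, 34.8 and 35.5 CPM with As2S2, 42.6, 38.1 and 38.1 CPM with PMA, and 66.7, 58.2 and 59.8 CPM in control. Both treatments lay wholly below control, and their ranges overlapped each other. Its log2 fold changes were -0.72 ± 0.09 with As2S2 (adjusted p = 1.70e-05, edgeR) and -0.64 ± 0.09 with PMA (adjusted p = 1.84e-05). With As2S2, POLR1B thus fell to 0.606 of control while POLR1A did not pass, and whether those 2 changes differ was not tested.

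RRN3 (ENSG00000085721), also called TIF-IA, links RNA polymerase I to the promoter of the ribosomal DNA. It had 92.1, 73.2 and 73.5 CPM with As2S2, 132, 147 and 145 CPM with PMA, and 88.9, 72.4 and 86.9 CPM in control. All PMA libraries lay above all others, and As2S2 overlapped control. Its log2 fold change with PMA was 0.77 ± 0.10 (adjusted p = 4.38e-06, edgeR). On log2(TPM + 1) the change of RRN3 was 0.26 and did not pass (adjusted p = 0.106, limma). RRN3 held whole counts in 0 of the 9 libraries, as happens when reads are divided among similar sequences, so its level is less certain.

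UBTF (ENSG00000108312), the factor that shapes active ribosomal DNA, had 141, 151 and 155 CPM with As2S2, 103, 95.8 and 92.2 CPM with PMA, and 154, 161 and 150 CPM in control. Its PMA libraries lay below all others, at -0.68 ± 0.07 (adjusted p = 4.36e-07, edgeR), and the As2S2 value was -0.06 ± 0.07 (adjusted p = 0.566). POLR1C (ENSG00000171453), a subunit shared by RNA polymerases I and III, had 51.5, 58.1 and 52.4 CPM with As2S2, 64.6, 71.0 and 65.9 CPM with PMA, and 61.1, 68.1 and 64.2 CPM in control. It fell with As2S2 by 0.26 ± 0.08 on the log2 scale (adjusted p = 0.0184, edgeR), a call that did not pass without As2S2 replicate 3 (-0.23, adjusted p = 0.0712) or without control replicate 3 (-0.25, adjusted p = 0.0514). With PMA its value of 0.06 did not pass, and it was -0.54 on log2(TPM + 1) and -0.18 once a trend with transcript length was removed. It overlaps YIPF3 and XPO5 on the opposite strand, whose counts were 121% and 161% of its own, and the strand setting of the counting is not given in the sources used here.

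Of 16 other RNA polymerase I genes, 4 fell and 3 rose with As2S2 (25% and 18.8%), near the 19.6% and 20.3% of all tested genes. With PMA 7 fell and 4 rose (43.8% and 25%), against 31.1% and 30.8% of all tested genes. The lowest adjusted p in both comparisons belonged to POLR1G, a subunit specific to RNA polymerase I, at -1.23 ± 0.10 with As2S2 (adjusted p = 1.43e-07, edgeR) and -1.23 ± 0.10 with PMA (adjusted p = 2.58e-08). POLR1F fell with both (-0.73 with As2S2 and -0.65 with PMA), as did POLR1E (-0.28 and -0.89). BAZ2A, which silences ribosomal DNA copies, rose with As2S2 (0.44), and POLR2K, a small subunit shared by the 3 nuclear RNA polymerases, rose with PMA (1.0).

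**Figure D3:**
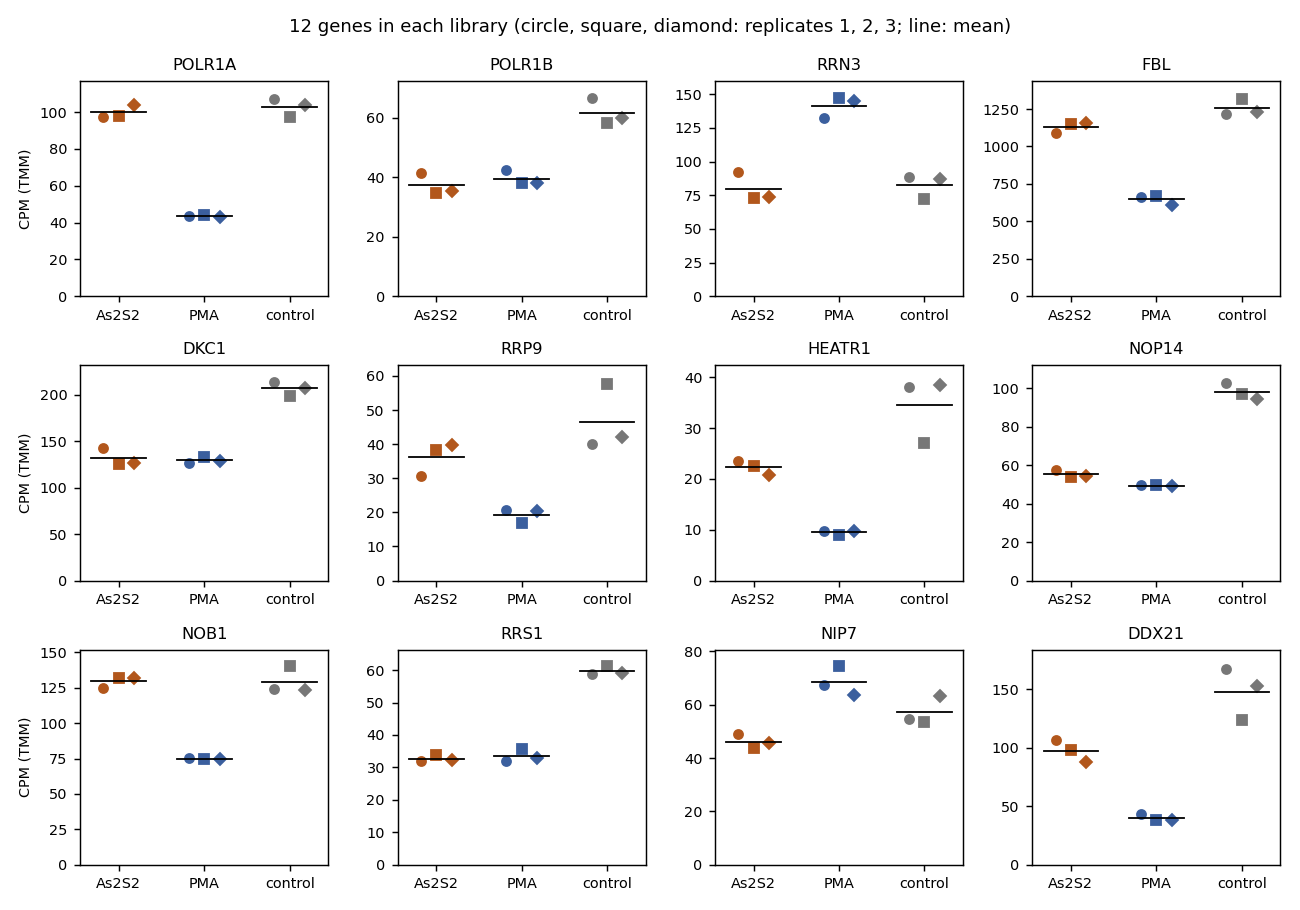
CPM of 12 of the genes in each library, with replicates 1, 2 and 3 as circle, square and diamond and the group mean as a line. POLR1A, RRN3 and NOB1 lie near control with As2S2 and move with PMA, whereas POLR1B, DKC1, NOP14 and RRS1 lie below control with both treatments.

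The snoRNP genes were lower with PMA throughout: 8 of 8 fell, with a median log2 fold change of -0.73. With As2S2, 6 of 8 fell and the median was -0.36. FBL (ENSG00000105202), fibrillarin, the methyltransferase of box C/D snoRNPs, had 1090, 1150 and 1160 CPM with As2S2, 666, 670 and 609 CPM with PMA, and 1220, 1320 and 1230 CPM in control. The 3 groups did not overlap. Its log2 fold change was -0.96 ± 0.07 with PMA (adjusted p = 2.92e-09, edgeR), and the As2S2 value of -0.15 ± 0.07 did not pass (adjusted p = 0.0696), although it did with upper-quartile scaling (-0.18, adjusted p = 0.0252) and in DESeq2 (-0.16, adjusted p = 0.0461).

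RRP9 (ENSG00000114767), the U3 snoRNP protein also called U3-55K, had 30.8, 38.4 and 39.8 CPM with As2S2, 20.8, 16.9 and 20.4 CPM with PMA, and 40.1, 57.5 and 42.1 CPM in control. PMA lay wholly below the other groups, and the highest As2S2 library came within 1 CPM of the lowest control. Its log2 fold change with PMA was -1.26 ± 0.14 (adjusted p = 9.02e-07, edgeR), the lowest of the snoRNP genes. With As2S2 it was -0.36 ± 0.13 (adjusted p = 0.0448), and it did not pass without As2S2 replicate 1 (-0.24, adjusted p = 0.169), without As2S2 replicate 2 (-0.39, adjusted p = 0.0679) or without control replicate 2 (-0.18, adjusted p = 0.214).

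NOP56 and NOP58 are the paired scaffold proteins of box C/D snoRNPs, and both fell with both treatments. NOP58 (ENSG00000055044) had 53.3, 48.4 and 41.7 CPM with As2S2, 35.3, 31.3 and 30.6 CPM with PMA, and 75.1, 58.5 and 72.3 CPM in control, or -0.52 ± 0.11 and -1.09 ± 0.11 on the log2 scale against control (adjusted p = 0.00118 and 3.53e-07, edgeR). NOP56 (ENSG00000101361) had 114, 102 and 109 CPM with As2S2, 111, 115 and 114 CPM with PMA, and 161, 155 and 157 CPM in control, or -0.54 ± 0.07 and -0.48 ± 0.07 (adjusted p = 1.19e-05 and 1.15e-05). For both genes each treatment lay wholly below control. NOP58 held whole counts in 2 of the 9 libraries, so its level is less certain.

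DKC1 (ENSG00000130826), dyskerin, is the pseudouridine synthase of box H/ACA snoRNPs and also binds telomerase RNA. It had 143, 125 and 126 CPM with As2S2, 126, 133 and 129 CPM with PMA, and 214, 199 and 207 CPM in control. The treatments overlapped each other and lay wholly below control, at -0.65 ± 0.07 with As2S2 (adjusted p = 3.08e-06, edgeR) and -0.68 ± 0.07 with PMA (adjusted p = 4.98e-07). Its H/ACA partner NHP2 (ENSG00000145912) had 210, 249 and 241 CPM with As2S2, 181, 175 and 163 CPM with PMA, and 240, 268 and 234 CPM in control. NHP2 overlapped control with As2S2 (-0.09 ± 0.08, adjusted p = 0.419) and fell with PMA (-0.52 ± 0.08, adjusted p = 3.30e-05, edgeR). It held whole counts in 0 libraries, so its level is less certain. GAR1, the remaining listed H/ACA protein, fell by 0.32 with As2S2 and by 0.50 with PMA on the log2 scale, and NOLC1, a snoRNP chaperone, fell by 0.37 and 0.79.

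Several of the 42 genes also carry snoRNA genes. By GENCODE 29, 9 of the 42 (21.4%) hold at least 1 snoRNA gene within their bounds, against 224 of 12433 tested protein-coding genes (1.80%). NOP56 holds 5, NOP58 holds 4, DKC1 holds 2, WDR43 holds 3, TSR1 holds 2, GNL3 holds 6, PPAN holds 2, NCL holds 3 and POLR1C holds 1. These snoRNAs lack poly(A) tails, and over all 9 libraries SNORA36A had 2 counts, SNORD91B had 1 and the others had 0, so their levels could not be read.

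Of 12 other snoRNP genes, 6 fell and 2 rose with As2S2 (50% and 16.7%), against 19.6% and 20.3% of all tested genes. With PMA 7 fell and 2 rose (58.3% and 16.7%), against 31.1% and 30.8% of all tested genes. RUVBL1, an ATPase that helps to build snoRNPs, fell with As2S2 (-0.67 ± 0.07, adjusted p = 2.20e-06, edgeR) and with PMA (-0.51). TCOF1, the treacle protein, fell with PMA (-1.25 ± 0.08, adjusted p = 1.73e-09), as did RUVBL2 (-0.85). ZNHIT6, a box C/D assembly factor, fell with both (-0.44 and -1.05). PIH1D1 rose with As2S2 (0.40) and fell with PMA (-0.56).

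With PMA, 3 of the small subunit assembly genes (HEATR1, UTP20 and DDX10) had the lowest log2 fold changes of the 42 after DDX21. In this step 11 of 11 fell with PMA, with a median log2 fold change of -0.79, and with As2S2 6 of 11 fell, with a median of -0.26. HEATR1 (ENSG00000119285), the human counterpart of yeast Utp10 and a part of the processome that is also needed for ribosomal RNA transcription, had 23.6, 22.6 and 20.7 CPM with As2S2, 9.75, 8.95 and 9.79 CPM with PMA, and 38.1, 27.0 and 38.5 CPM in control. The 3 groups did not overlap, although control replicate 2 was well below the other controls. Its log2 fold changes were -0.63 ± 0.12 with As2S2 (adjusted p = 0.000688, edgeR) and -1.86 ± 0.13 with PMA (adjusted p = 4.98e-09). HEATR1 held whole counts in 0 libraries and overlaps LGALS8 on the opposite strand, whose counts were 115% of its own.

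UTP20 (ENSG00000120800), a scaffold of the processome, had 5.11, 4.73 and 5.07 CPM with As2S2, 2.47, 1.91 and 3.39 CPM with PMA, and 10.9, 6.31 and 11.0 CPM in control. The groups did not overlap, and control replicate 2 was again the lowest control. Its log2 fold changes were -0.92 ± 0.21 with As2S2 (adjusted p = 0.00208, edgeR) and -1.86 ± 0.23 with PMA (adjusted p = 2.71e-06). It was also the least abundant of the 42, with 33 counts in its lowest library, and its SEs were the largest of the 42.

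NOP14 (ENSG00000087269), a processome protein, had 57.7, 54.1 and 54.6 CPM with As2S2, 49.6, 49.6 and 49.0 CPM with PMA, and 103, 97.0 and 94.7 CPM in control. Each treatment lay wholly below control, at -0.82 ± 0.07 with As2S2 (adjusted p = 2.97e-07, edgeR) and -0.99 ± 0.07 with PMA (adjusted p = 6.33e-09). DDX10 (ENSG00000178105), an RNA helicase, had 22.2, 20.8 and 18.6 CPM with As2S2, 13.3, 13.1 and 9.90 CPM with PMA, and 39.5, 28.2 and 33.4 CPM in control. It showed no overlap between groups, at -0.71 ± 0.13 and -1.48 ± 0.14 (adjusted p = 0.000439 and 1.16e-07, edgeR).

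Of the late factors of the small subunit, NOB1, BYSL and RRP12 did not pass with As2S2. NOB1 (ENSG00000141101), the endonuclease that makes the final cut at the end of 18S ribosomal RNA, had 125, 132 and 132 CPM with As2S2, 75.3, 74.8 and 74.6 CPM with PMA, and 124, 140 and 123 CPM in control. As2S2 and control overlapped (0.01 ± 0.07, adjusted p = 0.963) and PMA lay wholly below (-0.79 ± 0.07, adjusted p = 9.90e-08, edgeR). BYSL, bystin, gave -0.02 with As2S2 and -0.77 with PMA, and RRP12, an export factor, gave -0.20 and -0.98; only the PMA values passed. TSR1, another late factor, fell with both, by 0.26 and 0.56 on the log2 scale. Its As2S2 call did not pass without As2S2 replicate 2 (adjusted p = 0.0886), As2S2 replicate 3 (0.100), control replicate 1 (0.0965) or control replicate 3 (0.0649). TSR1 held whole counts in 0 libraries and overlaps SGSM2 on the opposite strand, whose counts were 28% of its own, so its level is less certain.

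UTP4, WDR43 and WDR75 belong with HEATR1 to the UTP-A complex, which binds the ribosomal RNA precursor early. UTP4 (ENSG00000141076), or cirhin, had 93.5, 83.1 and 84.5 CPM with As2S2, 65.0, 68.3 and 61.2 CPM with PMA, and 85.3, 83.1 and 84.9 CPM in control. It overlapped control with As2S2 (0.04 ± 0.07) and had the smallest fall of the step with PMA (-0.38 ± 0.08, adjusted p = 0.000344, edgeR). UTP4 overlaps CHTF8 on the opposite strand, whose counts were 70.3% of its own. WDR75 fell with PMA (-0.68) and gave -0.06 with As2S2, which did not pass. WDR43 had 38.9, 30.7 and 30.4 CPM with As2S2, 29.1, 32.8 and 24.4 CPM with PMA, and 48.3, 37.4 and 48.0 CPM in control, so As2S2 overlapped control. Its As2S2 value of -0.42 ± 0.13 passed (adjusted p = 0.0157, edgeR), but not without As2S2 replicate 2 (0.0784), As2S2 replicate 3 (0.0733), control replicate 1 (0.0739) or control replicate 3 (0.0710).

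Of 42 other small subunit assembly genes, 18 fell and 3 rose with As2S2 (42.9% and 7.14%), against 19.6% and 20.3% of all tested genes. With PMA 22 fell and 8 rose (52.4% and 19%), against 31.1% and 30.8% of all tested genes. RIOK1, a kinase of late small subunit maturation, fell with both, by 0.88 and 1.43 on the log2 scale. WDR3 and DIMT1 fell with As2S2 (-0.62 and -0.56) and also with PMA (-0.35 and -0.32). NAT10, an RNA acetyltransferase, and DHX37, a helicase, fell with PMA (-1.49 and -1.30) and also with As2S2 (-0.22 and -0.33).

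**Figure D4:**
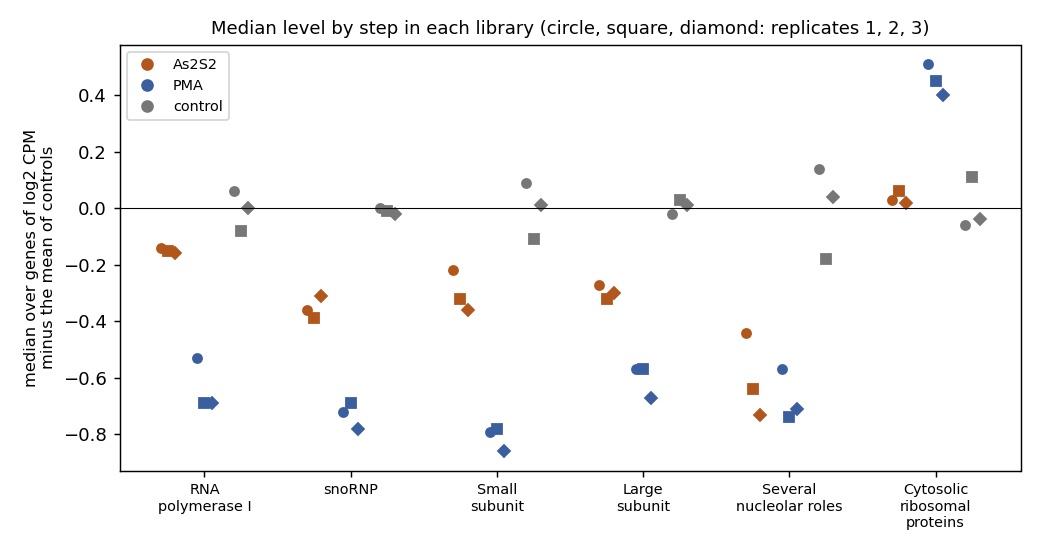
Median over the genes of each step of the log2 CPM minus the mean of the controls, in each library, with cytosolic ribosomal proteins for comparison. The PMA libraries lie between -0.86 and -0.53 in all 5 steps, the As2S2 libraries between -0.73 and -0.14 and the controls between -0.18 and 0.14, while ribosomal proteins are at 0.40 to 0.51 with PMA on this scale.

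In large subunit assembly 8 of 14 genes fell with As2S2 (median log2 fold change -0.29), while 11 fell and 2 rose with PMA (median -0.61). Of the PeBoW complex, made of PES1, BOP1 and WDR12, PES1 and BOP1 fell with PMA while WDR12 rose on TMM-scaled counts, a direction that depends on the scaling. PES1 (ENSG00000100029) had 158, 188 and 180 CPM with As2S2, 103, 104 and 100 CPM with PMA, and 190, 215 and 192 CPM in control, and fell with PMA (-0.96 ± 0.08, adjusted p = 2.30e-08, edgeR). Its As2S2 value was -0.19 ± 0.08 (adjusted p = 0.0651). BOP1 (ENSG00000261236) had 138, 172 and 166 CPM with As2S2, 98.9, 91.9 and 104 CPM with PMA, and 179, 255 and 179 CPM in control, and fell with PMA (-1.05 ± 0.12, adjusted p = 1.34e-06). Its As2S2 value of -0.37 ± 0.12 passed (adjusted p = 0.0224), but was -0.27 without As2S2 replicate 1 (adjusted p = 0.0964) and -0.17 without control replicate 2 (adjusted p = 0.106), the library in which BOP1 was highest.

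WDR12 (ENSG00000138442), the third PeBoW protein, had 98.3, 72.6 and 75.5 CPM with As2S2, 108, 116 and 121 CPM with PMA, and 95.6, 87.2 and 102 CPM in control. PMA lay above all other libraries. The log2 fold change with PMA was 0.28 ± 0.10 (adjusted p = 0.0260, edgeR), but -0.18 on log2(TPM + 1), which did not pass (adjusted p = 0.427). It did not pass without PMA replicate 2 (0.27, adjusted p = 0.0705), PMA replicate 3 (0.24, 0.102), control replicate 1 (0.28, 0.0572) or control replicate 2 (0.21, 0.0740). With As2S2 WDR12 gave -0.21 ± 0.10 (adjusted p = 0.117), and passed without As2S2 replicate 1 (-0.36, adjusted p = 0.00261) or without control replicate 2 (-0.26, adjusted p = 0.0429).

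NIP7 (ENSG00000132603), a factor of pre-60S particles, had 48.9, 43.7 and 45.6 CPM with As2S2, 67.2, 74.5 and 63.6 CPM with PMA, and 54.6, 53.5 and 63.2 CPM in control. As2S2 lay wholly below control and PMA wholly above it. The log2 fold changes were -0.31 ± 0.09 with As2S2 (adjusted p = 0.0119, edgeR) and 0.26 ± 0.09 with PMA (adjusted p = 0.0188), and the PMA value was -0.17 on log2(TPM + 1), which did not pass (adjusted p = 0.154). The As2S2 call did not pass without As2S2 replicate 2 (-0.27, adjusted p = 0.0620) or control replicate 3 (-0.23, 0.0886). The PMA call did not pass without PMA replicate 2 (0.19, adjusted p = 0.117), control replicate 1 (0.23, 0.0706) or control replicate 2 (0.21, 0.0531). The direct difference, As2S2 against PMA, was -0.57 ± 0.09 (adjusted p = 4.36e-05). NIP7 held whole counts in 1 library only and overlaps COG8 on the opposite strand, whose counts were 28.9% of its own, so its level is less certain.

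RRS1 (ENSG00000179041), which helps to bring the 5S particle into the large subunit, had 32.0, 33.9 and 32.2 CPM with As2S2, 32.0, 35.8 and 32.8 CPM with PMA, and 58.7, 61.1 and 59.0 CPM in control. Both treatments lay wholly below control, with a narrow spread within each group. Its log2 fold changes were -0.87 ± 0.08 with As2S2 (adjusted p = 6.45e-07, edgeR) and -0.83 ± 0.08 with PMA (adjusted p = 2.03e-07). NOP2 (ENSG00000111641), a methyltransferase of 28S ribosomal RNA, had 27.1, 25.8 and 37.5 CPM with As2S2, 35.7, 38.5 and 38.9 CPM with PMA, and 51.9, 50.1 and 55.3 CPM in control. It fell with both, by 0.80 ± 0.12 with As2S2 (adjusted p = 5.83e-05, edgeR) and by 0.48 ± 0.12 with PMA (adjusted p = 0.00204) on the log2 scale. NOP2 held whole counts in 0 libraries and overlaps AC006064.6 on the same strand, whose counts were 32.7% of its own.

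DDX18 (ENSG00000088205), an RNA helicase, had 50.3, 40.1 and 36.4 CPM with As2S2, 24.5, 25.2 and 24.4 CPM with PMA, and 63.5, 45.7 and 61.3 CPM in control. It had the largest fall of the step with PMA (-1.2 ± 0.13, adjusted p = 6.82e-07, edgeR). With As2S2 it overlapped control and gave -0.43 ± 0.13 (adjusted p = 0.0128), which did not pass without As2S2 replicate 2 (0.0583), As2S2 replicate 3 (0.0744), control replicate 1 (0.0756) or control replicate 3 (0.0610). DDX56 (ENSG00000136271), another helicase, had 43.7, 51.8 and 52.8 CPM with As2S2, 37.3, 40.5 and 34.9 CPM with PMA, and 48.8, 48.6 and 47.0 CPM in control. It overlapped control with As2S2 (0.04 ± 0.09) and fell with PMA (-0.36 ± 0.09, adjusted p = 0.00300, edgeR).

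The remaining large subunit genes fell into 3 sets. GNL3, or nucleostemin, MRTO4, the factor that holds the place of the ribosomal stalk, and PPAN fell with both treatments, by 0.26 to 0.71 with As2S2 and by 0.59 to 0.92 with PMA on the log2 scale. RRP1B and GRWD1, a histone-binding chaperone, fell with PMA (-0.88 and -0.38), while their As2S2 values of -0.09 and -0.08 did not pass. NOP16 passed in neither comparison (-0.13 and -0.05); it overlaps HIGD2A on the opposite strand, whose counts were 98.5% of its own. PPAN and NOP16 held whole counts in 0 libraries, so their levels are less certain. MRTO4 overlaps EMC1 and GNL3 overlaps GLT8D1 on the opposite strand, with counts of 87.4% and 28.5% of their own.

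Of 48 other large subunit genes, 24 fell and 1 rose with As2S2 (50% and 2.08%), against 19.6% and 20.3% of all tested genes. With PMA 32 fell and 3 rose (66.7% and 6.25%), against 31.1% and 30.8% of all tested genes. With As2S2 the lowest adjusted p belonged to RSL1D1 (-0.63), DDX51 (-0.96) and EBNA1BP2 (-0.48). With PMA it belonged to URB1 (-1.40), MDN1 (-1.78), the giant ATPase that strips assembly factors from pre-60S particles, and SDAD1 (-1.82). All of these large subunit genes named for either treatment were called lower with both. Another list held 15 genes that trim ribosomal RNA precursors, those of the RNA exosome with MTREX, MPHOSPH6, C1D and XRN2. Of these 15, 2 fell and 0 rose with As2S2 by the adjusted edgeR test (13.3% and 0%), against 19.6% and 20.3% of all tested genes. With PMA 8 fell and 2 rose (53.3% and 13.3%), against 31.1% and 30.8% of all tested genes. EXOSC5 fell with both (-0.88 and -1.59), as did EXOSC8 (-0.47 and -0.78).

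All 4 genes with several nucleolar roles fell with As2S2 (median log2 fold change -0.62), and 3 of 4 fell with PMA (median -0.68). DDX21 (ENSG00000165732), an RNA helicase that acts in ribosomal RNA transcription and processing, had 107, 97.8 and 88.0 CPM with As2S2, 43.6, 38.4 and 38.5 CPM with PMA, and 167, 124 and 153 CPM in control. The 3 groups did not overlap. Its log2 fold change with PMA, -1.88 ± 0.11 (adjusted p = 3.09e-10, edgeR), was the lowest of the 42, and that with As2S2 was -0.60 ± 0.10 (adjusted p = 0.000216). NCL (ENSG00000115053), nucleolin, had 731, 676 and 624 CPM with As2S2, 629, 576 and 585 CPM with PMA, and 1140, 979 and 1090 CPM in control, at -0.66 ± 0.08 and -0.84 ± 0.08 (adjusted p = 5.77e-06 and 8.82e-08, edgeR).

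NPM1 (ENSG00000181163), nucleophosmin, the most abundant nucleolar chaperone of the list, had 955, 717 and 678 CPM with As2S2, 983, 967 and 932 CPM with PMA, and 1150, 1030 and 1130 CPM in control. As2S2 replicate 1 stood above the other As2S2 libraries, and both treatments lay below control. NPM1 held whole counts in 1 library only, so its level is less certain. It fell with As2S2 (-0.49 ± 0.10, adjusted p = 0.00102, edgeR), and its PMA value of -0.20 ± 0.10 did not pass (adjusted p = 0.0976) but did without control replicate 2 (-0.25, adjusted p = 0.0322). LYAR, a nucleolar zinc-finger protein, fell with both, by 0.63 with As2S2 and by 0.52 with PMA on the log2 scale.

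The direct comparison of As2S2 with PMA, which uses the controls only for the shared estimate of spread, placed most of the genes higher with As2S2. With As2S2 26 of the 42 were higher than with PMA and 6 were lower, where 30.9% of tested genes were higher and 30.6% lower (61.4% either way), and the median log2 difference was 0.41. All 3 As2S2 libraries lay above all 3 PMA libraries for 27 genes, against 33.6% of tested genes, and below them for 4, against another 33.6%. The largest differences were those of DDX21 (1.28 ± 0.11, adjusted p = 3.68e-08, edgeR), HEATR1 (1.23 ± 0.14, adjusted p = 8.94e-07) and POLR1A (1.2 ± 0.07, adjusted p = 7.25e-10). All 13 genes called lower with PMA and not with As2S2 passed here too, by 0.31 to 1.2, although GRWD1 did not once a trend with transcript length was removed (0.18, adjusted p = 0.0872). The same held for TSR1 (0.07, adjusted p = 0.433) and POLR1C (-0.04, adjusted p = 0.633).

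The 6 that were lower with As2S2 than with PMA were RRN3 (-0.83), NIP7 (-0.57), WDR12 (-0.49), NOP2 (-0.32), POLR1C (-0.31) and NPM1 (-0.29). On log2(TPM + 1) POLR1C, NOP2 and NPM1 gave 0.14, 0.02 and 0.03. NOP2 did not pass without As2S2 replicate 1, As2S2 replicate 2, PMA replicate 2 or PMA replicate 3, with adjusted p between 0.0800 and 0.162. NPM1 did not pass without As2S2 replicate 2, As2S2 replicate 3, PMA replicate 1 or PMA replicate 2, with adjusted p between 0.0551 and 0.120. NCL, called higher with As2S2 at 0.18 (adjusted p = 0.0469), did not pass without As2S2 replicate 1 (0.117), As2S2 replicate 2 (0.0733), PMA replicate 2 (0.141) or PMA replicate 3 (0.116), nor with RLE scaling (0.05) or upper-quartile scaling (0.158).

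Another 9 genes fell with both treatments and did not pass in the direct comparison. The 95% interval of their log2 difference was -0.29 to 0.12 for POLR1B and for GNL3, -0.20 to 0.08 for NOP56, -0.13 to 0.18 for DKC1 and -0.21 to 0.14 for RRS1. It was 0.01 to 0.34 for GAR1, 0.01 to 0.32 for NOP14, -0.07 to 0.49 for WDR43 and -0.37 to 0.16 for LYAR. These intervals bound the difference and do not show equal levels. On log2(TPM + 1), where the median difference of the 42 genes was 0.69, POLR1B gave 0.28, NOP56 0.17 and RRS1 0.30.

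With PMA the genes of ribosome assembly and those of the ribosome itself lay on opposite sides of the median gene. Over 133 other assembly genes, 54 fell and 9 rose with As2S2 (median log2 fold change -0.20), and 76 fell and 19 rose with PMA (median -0.40). Among all tested genes 19.6% fell and 20.3% rose with As2S2, and 31.1% fell and 30.8% rose with PMA. Of 79 genes for cytosolic ribosomal proteins, 9 fell and 6 rose with As2S2 (median 0.04). With PMA 1 fell and 65 rose on TMM-scaled counts (median 0.46), but their median log2 ratio was -0.06 on TPM, where the median tested gene stood at -0.45 and the 42 genes at -1.16. Relative to the median gene, ribosomal proteins were therefore higher and the 42 genes lower on both scales. Of 78 mitochondrial ribosomal protein genes, 21 fell and 7 rose with As2S2 (median -0.12), and 19 fell and 36 rose with PMA (median 0.17 on counts and -0.31 on TPM).

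**Figure D5:**
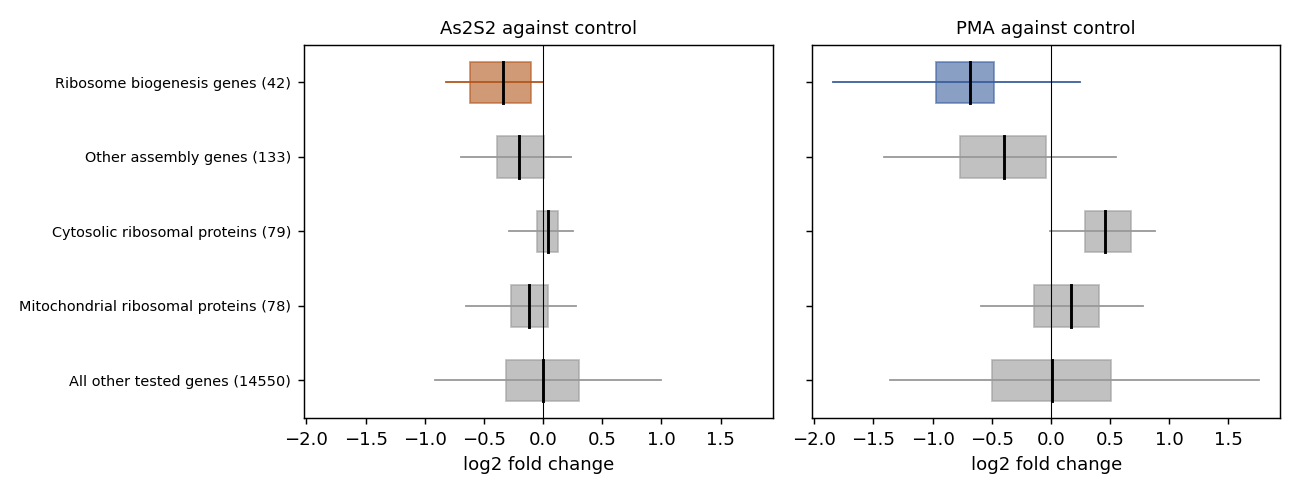
Distribution of log2 fold changes over the 42 genes (coloured) and over other lists (grey), with the number of tested genes in brackets. Boxes run between the quartiles, lines from the 5th to the 95th percentile, and black bars mark the median. The 42 genes have medians of -0.34 with As2S2 and -0.68 with PMA, cytosolic ribosomal proteins of 0.04 and 0.46 on TMM-scaled counts, and all other tested genes centre on 0.

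Levels between genes were compared per length, as TPM. FBL had 1780 TPM in control on average, NPM1 854, NHP2 416, NCL 387, NOP16 145 and NOP56 115, and these 6 were the genes at or above 100 TPM. At the other end WDR75 had 9.33 TPM, POLR1A 6.92, HEATR1 3.56 and UTP20 0.87. The median of the 42 genes was 31.2 TPM in control against 4.59 TPM over tested genes, and 40 of the 42 lay above that median. Together the 42 genes made up 0.377% ± 0.00850 of TPM with As2S2, 0.230% ± 0.00306 with PMA and 0.495% ± 0.0310 in control (SD, n = 3 each). The 79 ribosomal protein genes made up 38.7% ± 0.503 with As2S2, 38.6% ± 0.503 with PMA and 40.8% ± 0.265 in control.

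By step, the summed TPM of the 8 snoRNP genes was 2151 ± 50 with As2S2, 1061 ± 47 with PMA and 2605 ± 126 in control (SD, n = 3 each). That of the 11 small subunit genes was 204 ± 1 with As2S2, 108 ± 3 with PMA and 249 ± 13 in control, and that of the 14 large subunit genes was 504 ± 13, 348 ± 16 and 668 ± 7 in the same order. The 5 RNA polymerase I genes summed to 110 ± 2, 89 ± 4 and 136 ± 10, and the 4 genes with several roles to 801 ± 137, 697 ± 8 and 1290 ± 157. In every step the mean sum was lowest with PMA and highest in control, and the gap between As2S2 and PMA was within the spread of the As2S2 libraries for the genes with several roles. On TPM the median of 11116 other tested genes, each with a mean of at least 1 TPM, itself stood at -0.45 with PMA on the log2 scale. FBL (1780 TPM in control) and NPM1 (854 TPM) weigh most in the sums of their steps.

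The authors' deposited table gave like counts for these genes: 25 lower and 0 higher with As2S2 (median log2 fold change -0.35) and 37 lower and 3 higher with PMA (median -0.71), at an adjusted p below 0.05. No value of the 42 differed from the fit used here by more than 0.02 with As2S2 and 0.03 with PMA on the log2 scale.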

How the data were processed

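Poly(A)-selected RNA was sequenced from 9 libraries (3 As2S2, 3 PMA, 3 control). Groups and replicate numbers came from the labels. Per the labels' protocols the library kit was NEBNext Ultra II, and fastp 0.22.0 and DESeq2 are named in the submitters' processing notes. Those notes name zebrafish genome builds and the organism field of 1 control is not human, but the deposited IDs are human Ensembl genes. How reads were aligned and counted, with which strand setting and annotation, is not given in the sources used here.

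Per the file headers, the authors deposited for each treatment against control a table of estimated counts (expected counts, not normalized) and TPM per gene and library, beside the adjusted p-value and log2 fold change of the authors' own comparison. The control values differed in 0 cells between the tables. Whole numbers made up 89.9% to 91.4% of the values of a library (0 included), and the remainder was rounded. Symbols were found for 62666 of 63241 IDs.

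Genes kept by filterByExpr (14592) were scaled by TMM and tested in edgeR 4.0.16 (R 4.3.3) by quasi-likelihood F-tests, with all 9 libraries in 1 fit, Benjamini-Hochberg adjustment over all tested genes with calls at an adjusted p below 0.05. The common dispersion had a square root of 0.0909. Log2 fold changes are given with the SE from the fit, and intervals are at 95%. The fit was tested on simulated counts with 200 changed genes. The alternatives were limma-voom (limma 3.58.1), DESeq2 1.42.0, scaling by RLE or by the upper quartile, no filter, a stricter filter (mean of 1 CPM, and 10 or more counts in all libraries of some group), only the 2 groups compared, a replicate block, a threshold of 0.01, removal of a trend with transcript length, and libraries left out. A test of log2(TPM + 1) with limma was added after seeing the data, because TPM and TMM-scaled CPM centre differently.

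The 42 genes and all other lists were chosen with earlier results of these data known. Values per library are given for the genes with the lowest and highest change of each step, and for those that moved against their step, with some others added after their values were seen. Of the other lists, up to 3 genes with the smallest adjusted p were named. Promoters (300 bases, RefSeq, GRCh38.p14) were matched by symbol, and for 7 of the 42 no promoter was used here. SnoRNA genes and overlaps came from GENCODE 29. The values of 1 marker gene are not reported here.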

Additional observations from a re-analysis of the deposited data

How the results depend on the processing

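The counts of the 42 genes that fell kept their size under every alternative, except those named here. For As2S2 against control, leaving out each library in turn gave 21 to 25 genes that fell, 0 that rose and medians of -0.34 to -0.32. For PMA against control it gave 36 to 37 that fell, 1 to 3 that rose and medians of -0.73 to -0.67. The count that rose was 1 without PMA replicate 2, without control replicate 1 or without control replicate 2. For As2S2 against PMA it gave 4 to 5 lower, 25 to 26 higher and medians of 0.38 to 0.45. Genes called among all tested were 4729 to 6320, 8282 to 9368 and 8159 to 8978 in the same order. A threshold of 0.01 left 1 gene that rose with PMA. It also removed the As2S2 calls of POLR1C, RRP9, WDR43, TSR1, BOP1, DDX18 and NIP7, whose adjusted p lay between 0.0119 and 0.0448 (edgeR). In As2S2 against PMA it removed the calls of NOP2 and NPM1 (lower) and NCL (higher). Upper-quartile scaling gave medians of -0.37 for As2S2 against control and 0.36 for As2S2 against PMA.

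On log2(TPM + 1), chosen after seeing the data, the medians were -0.42 (As2S2 against control), -1.09 (PMA against control) and 0.69 (As2S2 against PMA), 0 genes rose with PMA by limma and 1 was lower with As2S2 than with PMA. Signs turned there for POLR1C (-0.54), WDR12 (-0.18) and NIP7 (-0.17) with PMA, and in As2S2 against PMA for POLR1B (0.28), POLR1C (0.14), NOP56 (0.17), NOP2 (0.02), NOP16 (0.26), RRS1 (0.30) and NPM1 (0.03). Once a trend with transcript length was removed, POLR1C was -0.18 with PMA and NOP16 was 0.26 in As2S2 against PMA. The cause was not tested. Calls held in all of 16 alternatives for 19 of 26 genes with As2S2, 37 of 39 with PMA and 26 of 32 in the direct comparison. The stricter threshold and the log2(TPM + 1) test were not among these 16. The set did include leaving out both libraries that differed most from their replicates in these data. Calls that the TMM-scaled edgeR test did not make appeared in at least 1 of these alternatives for 7 genes with As2S2 (FBL, PES1, RRN3, RRP12, RRP1B, WDR12 and WDR75), for 3 with PMA (NOP16, NPM1 and POLR1C) and for 5 in the direct comparison (GAR1, LYAR, NOP14, NOP16 and POLR1B).

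With control replicate 2 and As2S2 replicate 1 both left out, 28 genes fell with As2S2 and 37 with PMA, but the remaining libraries of these groups also differ on a component that separated those 2 libraries. Correlations between replicates with the same number ran from -0.0730 to 0.149, and those with different numbers from -0.215 to 0.149. With 3 libraries a group, these values cannot show whether the numbers mark samples handled together. With the replicate number as a block 27, 36 and 6 genes were lower in the 3 comparisons and 0, 3 and 26 were higher. Depth limits UTP20 most, with 33 counts in its lowest library.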
